A study of Rattus norvegicus with 12 samples.

Results

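Chemokines, interleukins and the receptors that bind them were read out as transcripts in cultured fetal rat metatarsals, the long bones of the hind paw. The set was defined by gene symbol, and it was chosen with earlier results of these data known. Il6r and Il6st, which belong with the gp130 family, were left out. Every other symbol made of Ccl, Cxcl, Cx3cl, Ccr, Cxcr, Cx3cr or Ackr and a number was taken. So were those of Il and a number, with or without further lowercase letters and digits. Chemokine family genes with other symbol forms, such as Xcl1, Xcr1, Pf4, Ppbp and Ccrl2, were outside the set. The set held 130 of the 30045 gene symbols in the count files. Of these, 22 reached 60 counts in at least 2 libraries and entered the test, which is 16.9% of the set against 41.9% of all symbols. The metatarsals came from Sprague Dawley rats at embryonic day 19 and were kept for 72 h as whole bones in medium with albumin, β-glycerophosphate and ascorbic acid. Control cultures received the ethanol vehicle, dexamethasone cultures 1 µM dexamethasone, LiCl cultures 10 mM LiCl with the ethanol vehicle, and dexamethasone + LiCl cultures both agents. Each group had 3 libraries, and each library was made from a pool of about 20 bones, so a value averages many bones. The study's methods describe 3 experiments, with the bones of each spread at random over the 4 groups and each pool taken from 1 rat, so the groups share their rats. Dexamethasone is a synthetic glucocorticoid, and LiCl is widely used to inhibit GSK3 and so to raise β-catenin.

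Chemokines are small secreted proteins that steer the movement of cells through G protein-coupled receptors, and the atypical chemokine receptors bind chemokines and remove or store them without that G protein signal. Interleukins act through several receptor families: IL-1 receptors signal through MyD88 to NF-kB, IL-17 receptors through their own adaptors, and most of the remaining interleukin receptors through JAK kinases and STAT factors. In cartilage, IL-1 is known as a driver of matrix breakdown, and CXCL12 with its receptor CXCR4 is known for its part in vessel entry and in the recruitment of blood-forming cells to bone. Glucocorticoids are known to repress many inflammatory cytokine genes.

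Total counts ran from 9055581 to 21953446 per library. The tissue label was checked with markers: all 9 listed chondrocyte genes were tested, and their summed level lay between 66970 and 99071 CPM (counts scaled to a common library size) across the 12 libraries. Of the lymphoid markers, 6 of 6 for B cells and 6 of 8 for T cells stayed under 10 counts in every library. The 1 T cell marker that was tested, Cd5, had 0.528 ± 0.242 CPM in control and was higher with dexamethasone (2.14 ± 0.917 CPM, log2 fold change 1.92, adjusted p = 0.0399), with LiCl (4.79 ± 1.03 CPM, 3.10, adjusted p = 0.00085) and with both agents (5.19 ± 2.95 CPM, 3.26, adjusted p = 0.00018). Its highest level was 0.806 CPM in control and 3 CPM with dexamethasone. Cd5 thus entered the test through libraries with LiCl, in which it was high. These are bulk libraries, so fewer cells of a type and less RNA per cell cannot be told apart. Levels below are CPM after trimmed mean of M values (TMM) scaling, as mean ± SD with n = 3 libraries, and they were not compared between genes because transcript lengths were not used here. Each difference is a log2 fold change followed by its standard error (SE). The quasi-likelihood test of edgeR gave the p-values, adjusted by Benjamini-Hochberg over all 12602 genes tested, with 0.05 as the threshold.

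By role, 5 of 33 chemokines were tested (Cx3cl1, Cxcl12, Cxcl13, Cxcl14 and Cxcl16), 1 of 16 chemokine receptors (Cxcr4), 2 of 4 atypical receptors (Ackr4 and Cxcr7, whose current symbol is Ackr3), 3 of 37 interleukins (Il16, Il17d and Il33), 10 of 36 interleukin receptors and 1 of 4 secreted antagonists or binding proteins (Il18bp). Of the 108 others, 17 had no count in any library, among them Il2, Il4, Il5, Il17a and Il22, cytokines known from lymphoid cells. Another 51 had between 1 and 9 counts at most, and 40 reached 10 counts in some library. Among cytokines known from inflammation, the highest count in any library was 5 for Il6, 8 for Il1a and 31 for Il1b. It was 32 for Il18 and 60 for Il23a. None of these reached 60 counts in at least 2 libraries, the minimum for testing. Il33, which was tested, reached 152 counts.

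Dexamethasone raised 4 tested members against control (Il1r1, Il1rap, Il16 and Ackr4) and lowered 1 (Cxcr4). That is 18.2% and 4.55% of the 22, against 5.45% of all genes tested that were higher and 5.49% that were lower. The 18.2% includes Ackr4, which entered the test through the dexamethasone libraries, in which it was high. The median log2 fold change was -0.07 over the members and 0.00 over all genes, and the median absolute change was 0.27 against 0.15. LiCl raised 2 members (Cxcl13 and Il17rd) and lowered 1 (Cxcl12), or 9.09% and 4.55%, against 4.71% higher and 5.9% lower among all genes, with medians of -0.20 and 0.00. With the replicate number as a block, LiCl against control had 5 members past the threshold, 3 higher and 2 lower, the added ones being Il16 (log2 fold change 0.27, adjusted p = 0.0322) and Il11ra1 (-0.31, adjusted p = 0.0345). The share of all genes past the threshold in that block fit was not computed, so the 5 cannot be set against it. In the fit by group without the block, 10 of the 22 passed the threshold in at least 1 comparison and 12 in none. Il11ra1, 1 of the 12, passed with the block.

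Cxcr4 encodes the signalling receptor for CXCL12. Its level was 24.1, 29.3 and 24.3 CPM in the control libraries and 6.31, 6.38 and 5.49 CPM with dexamethasone. It was 23.7, 24.7 and 25.1 CPM with LiCl and 11.6, 11.4 and 10.3 CPM with both agents. Every dexamethasone library was below every library with both agents, and these in turn were below all control and LiCl libraries. Dexamethasone lowered Cxcr4 4.23-fold against control (log2 fold change -2.08, SE 0.12, adjusted p = 1.5e-08). Against dexamethasone alone, the level with both agents was higher (log2 fold change 0.86, SE 0.13, adjusted p = 0.00072), yet it remained below control (-1.22, SE 0.11, adjusted p = 1.1e-06) and below LiCl (-1.15, SE 0.11, adjusted p = 4.1e-06). LiCl alone left a difference of -0.07 with a 95% interval from -0.28 to 0.14 and an adjusted p of 0.715. Blood vessel cells are a known source of Cxcr4, and 9 of 11 endothelial markers were lower with dexamethasone than in control, with a summed level of 107 to 115 CPM against 246 to 288 CPM. With both agents that sum was 117 to 129 CPM, and 1 of the 11 was higher than with dexamethasone alone. The part of endothelial RNA in the Cxcr4 values was not tested.

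The Cxcr4 promoter is shown because this member had the largest fall with dexamethasone among the 22. Promoter sequences run from 250 bases before to 50 after the annotated start, 5′ to 3′ on the gene's strand, from RefSeq on GRCr8, and capitals mark any of the searched words. This one is chr13:42634239-42634538 on the minus strand and holds none of them:
Cxcr4 promoter: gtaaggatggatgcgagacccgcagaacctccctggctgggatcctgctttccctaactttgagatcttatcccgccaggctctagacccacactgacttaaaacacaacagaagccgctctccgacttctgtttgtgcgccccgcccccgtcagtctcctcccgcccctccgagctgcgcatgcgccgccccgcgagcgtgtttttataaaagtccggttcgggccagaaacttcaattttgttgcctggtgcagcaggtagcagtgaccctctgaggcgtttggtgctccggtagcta

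Ackr4 encodes an atypical receptor that takes up CCL19, CCL21 and CCL25. Control libraries had 2.88, 2.79 and 2.97 CPM, and dexamethasone libraries 7.97, 6.71 and 6.95 CPM. With LiCl it was at 2.86, 2.57 and 1.7 CPM, and with both agents at 2.08, 3.92 and 2.45 CPM. The dexamethasone libraries stood apart from all the others, and the other 3 groups overlapped. Ackr4 rose 2.49-fold with dexamethasone (log2 fold change 1.32, SE 0.23, adjusted p = 0.0013), and the level with both agents was lower than with dexamethasone alone (-1.35, SE 0.24, adjusted p = 0.0026). These comparisons share the dexamethasone libraries. The gene met the count minimum in those libraries and in control replicate 1 (64, 77, 80 and 62 counts), so it entered the test through the group in which it was high. LiCl against control gave -0.30 with an interval from -0.82 to 0.22. Its known ligands Ccl19, Ccl21 and Ccl25 were not among the tested members.

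Cxcr7, the scavenging receptor for CXCL12, had 76.1 ± 9.67 CPM in control, 69.1 ± 7.34 CPM with dexamethasone, 79.2 ± 2.99 CPM with LiCl and 77.4 ± 5.37 CPM with both agents, and passed the threshold in no comparison. The interval of its log2 fold change was -0.35 to 0.08 for dexamethasone and -0.15 to 0.27 for LiCl, each against control.

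Cxcl12, the ligand that CXCR4 and CXCR7 share, followed LiCl and not its receptor's pattern. Its level was 72.9, 74.8 and 68.6 CPM in control and 60.5, 59.3 and 69.4 CPM with dexamethasone. It was 45.7, 42.6 and 36 CPM with LiCl and 41.1, 37 and 32.1 CPM with both agents. All 6 libraries with LiCl were below all 6 without it. Cxcl12 fell by 0.80 on the log2 scale with LiCl against control (SE 0.10, adjusted p = 0.00019) and by 0.79 with both agents against dexamethasone (SE 0.11, adjusted p = 0.00036). Against control, the level with both agents fell by 0.98 (SE 0.11, adjusted p = 8.4e-06). Dexamethasone alone gave -0.19 with an interval from -0.42 to 0.03.

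Cxcl13, known as the attractant of B cells through CXCR5, rose most with LiCl among the tested members. Control libraries had 2.03, 2.32 and 3.12 CPM, and LiCl libraries 10.9, 13 and 11.1 CPM. With dexamethasone it was at 1.55, 1.85 and 1.79 CPM, and with both agents at 2.73, 4.84 and 4.26 CPM. The LiCl libraries stood above all others, while the libraries with both agents overlapped control. The rise with LiCl was 4.66-fold (log2 fold change 2.22, SE 0.21, adjusted p = 9.4e-06). On dexamethasone, adding LiCl raised it by 1.20 on the log2 scale (SE 0.26, adjusted p = 0.0104), and on LiCl, adding dexamethasone lowered it (-1.54, SE 0.21, adjusted p = 0.00014). Both agents against control gave 0.68 (SE 0.23, adjusted p = 0.0458), a call that was lost without any 1 of 9 libraries, with adjusted p from 0.0531 to 0.18. LiCl also moved markers of other tissues: 4 of 7 skeletal muscle markers were higher than in control (summed level 25.9 to 35.7 CPM against 3.73 to 7.29 CPM) and 3 of 5 adipocyte markers lower (18.4 to 19.2 CPM against 40.9 to 55.8 CPM). Macrophage markers were lower in 5 of 10 tested, osteoclast markers in 3 of 3 and endothelial markers in 2 of 11. Of 8 T cell markers, 6 stayed under 10 counts in every library. Cd5, the 1 tested, entered the test through libraries with LiCl and was higher. No T cell change is read from this 1 marker. The part of muscle, fat, macrophage, osteoclast and endothelial RNA in the Cxcl12 and Cxcl13 values was not tested.

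The promoters of these LiCl-responsive chemokines are shown together because the genes moved in opposite directions. Cxcl12 lies at chr4:152060531-152060830 on the plus strand and Cxcl13 at chr14:13917871-13918170 on the minus strand. The first holds the TCF/LEF word on the opposite strand, 198 bases before the start, and the other holds none of the words searched:
Cxcl12 promoter: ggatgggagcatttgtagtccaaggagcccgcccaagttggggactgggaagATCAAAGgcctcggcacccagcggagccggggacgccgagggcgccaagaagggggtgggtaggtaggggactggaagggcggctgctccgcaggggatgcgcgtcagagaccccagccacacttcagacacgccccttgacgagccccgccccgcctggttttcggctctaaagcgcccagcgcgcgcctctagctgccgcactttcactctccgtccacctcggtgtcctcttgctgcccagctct
Cxcl13 promoter: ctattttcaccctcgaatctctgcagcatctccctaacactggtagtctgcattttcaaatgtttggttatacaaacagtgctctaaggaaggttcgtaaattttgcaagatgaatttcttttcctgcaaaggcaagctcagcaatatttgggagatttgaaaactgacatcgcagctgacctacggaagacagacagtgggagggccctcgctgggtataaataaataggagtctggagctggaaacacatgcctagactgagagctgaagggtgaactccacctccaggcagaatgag

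Cx3cl1, the membrane-bound ligand of CX3CR1, had 8.37, 8.63 and 6.35 CPM in control and 10.8, 11.6 and 10.9 CPM with dexamethasone. It had 7.43, 5.19 and 6.01 CPM with LiCl and 7.98, 12 and 8.99 CPM with both agents. It was higher with both agents than with LiCl alone (log2 fold change 0.65, SE 0.18, adjusted p = 0.0466), a call lost without any 1 of 8 libraries (adjusted p from 0.0515 to 0.269), and dexamethasone against control missed the threshold (0.52, adjusted p = 0.0877). Cxcl14, a chemokine of epithelia and stroma, and Cxcl16, the ligand of CXCR6, passed in no comparison, with group means of 21.6 to 29.4 CPM and 3.02 to 4.66 CPM.

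Il1r1, the receptor through which IL-1α and IL-1β signal, had the smallest adjusted p among the members. Its level was 29.3, 25.4 and 23.6 CPM in control and 102, 102 and 99.3 CPM with dexamethasone. It was 23.2, 22.3 and 23.2 CPM with LiCl and 64.3, 60 and 56.4 CPM with both agents. The libraries fell into 3 separate bands, with dexamethasone highest, both agents next, and control and LiCl together lowest. Dexamethasone raised Il1r1 3.86-fold (log2 fold change 1.95, SE 0.09, adjusted p = 1.1e-09). With both agents it was lower than with dexamethasone alone (-0.75, SE 0.09, adjusted p = 5.8e-05) and higher than in control (1.20, SE 0.09, adjusted p = 1.3e-07) and with LiCl (1.39, SE 0.09, adjusted p = 7.9e-08). LiCl alone gave -0.19 with an adjusted p of 0.189.

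Il1rap, the co-receptor that IL1R1 needs for signalling, rose with dexamethasone as well. Control libraries had 8.19, 4.36 and 5.44 CPM and dexamethasone libraries 12.7, 14.9 and 9.86 CPM. With LiCl it was at 7.43, 8.97 and 8.86 CPM, and with both agents at 15.1, 20.3 and 15.3 CPM. Every library with dexamethasone lay above every library without it. The log2 fold change was 1.03 for dexamethasone against control (SE 0.21, adjusted p = 0.0047) and 1.00 for both agents against LiCl (SE 0.20, adjusted p = 0.0052). Il1r2, the decoy receptor for IL-1, had at most 4 counts in any library, and the antagonist Il1rn at most 12. In the same dexamethasone libraries 6 of 10 tested macrophage markers exceeded control and 1 lay below it (summed level 236 to 266 CPM against 96 to 149 CPM). Cd163, 1 of the 6, met the count minimum only in libraries with dexamethasone. With dexamethasone 3 of 5 epidermis markers were also higher than in control, while Krt5 and Krt14 stayed under 10 counts everywhere. Whether these cells carried any of the Il1r1 or Il1rap RNA was not tested.

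The Il1r1 promoter at chr9:50034133-50034432 on the plus strand is shown because this receptor rose most with dexamethasone among the 22 on the log2 scale. It holds none of the words searched:
Il1r1 promoter: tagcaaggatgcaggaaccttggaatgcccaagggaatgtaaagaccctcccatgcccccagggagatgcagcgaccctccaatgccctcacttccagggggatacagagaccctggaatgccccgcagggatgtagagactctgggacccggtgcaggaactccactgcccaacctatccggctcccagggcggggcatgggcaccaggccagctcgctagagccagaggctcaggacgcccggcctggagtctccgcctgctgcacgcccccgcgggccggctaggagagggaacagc

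Il17rd, a member of the IL-17 receptor family also known as Sef, an inhibitor of FGF signalling, rose with LiCl in either setting. It had 17.2, 12.3 and 14.2 CPM in control and 16.2, 18.5 and 13.6 CPM with dexamethasone. It had 25.9, 25.4 and 27.3 CPM with LiCl and 26.9, 28.6 and 24.8 CPM with both agents. The 6 libraries with LiCl were above the 6 without it. The log2 fold change was 0.83 for LiCl against control (SE 0.13, adjusted p = 0.00071), 0.72 for both agents against dexamethasone (SE 0.13, adjusted p = 0.0033) and 0.86 for both agents against control (SE 0.13, adjusted p = 0.00018). The IL-17 receptor chains Il17ra and Il17rc, with group means of 19.7 to 21.7 CPM and 16.6 to 20.9 CPM, passed in no comparison, and neither did the ligand Il17d with 29.4 to 34.8 CPM.

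Among the other interleukin receptors, Il11ra1, through which IL-11 acts on bone cells, had 73.4 ± 14.4 CPM in control and 58.6 ± 6.39 CPM with LiCl. It missed the threshold in every comparison, but with the replicate block it was lower than control with LiCl, as given above, and with both agents (log2 fold change -0.28, adjusted p = 0.0367). Il10rb, Il12rb2, Il3ra and Il4r had group means between 8.72 and 18.7 CPM and were called nowhere. Il18bp, the secreted trap for IL-18, ranged from 19.9 CPM in control to 23.6 CPM with LiCl and was not called.

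Il16, a cytokine cut from a larger PDZ-domain precursor and known to attract CD4+ cells, rose with dexamethasone. Control libraries had 80.5, 67.7 and 80.5 CPM and dexamethasone libraries 134, 121 and 134 CPM. It was at 93.7, 94.6 and 86.6 CPM with LiCl and 141, 124 and 150 CPM with both agents. All 6 dexamethasone-treated libraries were above all 6 others. The log2 fold change was 0.76 for dexamethasone against control (SE 0.09, adjusted p = 3.8e-05), 0.60 for both agents against LiCl (SE 0.09, adjusted p = 0.00052) and 0.86 for both agents against control (SE 0.09, adjusted p = 6.3e-06). Its promoter, at chr1:147116693-147116992 on the minus strand, is shown because it holds the AP-1 word, 67 bases before the start:
Il16 promoter: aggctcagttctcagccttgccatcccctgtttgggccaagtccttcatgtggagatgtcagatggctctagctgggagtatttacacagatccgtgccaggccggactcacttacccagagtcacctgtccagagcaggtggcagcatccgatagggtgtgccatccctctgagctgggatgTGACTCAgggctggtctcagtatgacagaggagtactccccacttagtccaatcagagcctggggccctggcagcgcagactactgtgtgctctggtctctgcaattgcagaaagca

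Il33, a nuclear alarmin of the IL-1 family, had 6.84, 6.78 and 4.89 CPM in control and 3.06, 4.38 and 2.92 CPM with both agents, with no overlap. It fell by 0.84 on the log2 scale (SE 0.24, adjusted p = 0.0199), and the call was lost without control replicate 1 or without replicate 1 or 3 of the combination (adjusted p from 0.0699 to 0.0926). Either agent alone left it at 5.47 ± 1.66 CPM (dexamethasone) and 4.91 ± 0.482 CPM (LiCl), uncalled against control. Its receptor Il1rl1 had 2 to 35 counts per library and, in the fit without a count filter, passed in no comparison.

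Promoter words were compared with all 33469 RefSeq promoters of the same length, on both strands, for the 20 of 22 tested members that matched. The glucocorticoid receptor word AGAACA stood in 1 of the 20 (Il18bp, 175 bases before the start) and in 20.7% of all promoters. The NF-kB words GGGACTTTC and GGAATTTCC stood in 0 of the 20 and 0.657% of all, the AP-1 word TGACTCA in Il16 and Cxcl14 and 4.63% of all, and the TCF/LEF words CTTTGAT and CTTTGAA in Cxcl12 and 8.73% of all. A word is a match of letters in this window, and no match overlapped another.

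Adding LiCl to dexamethasone left 3 members higher (Cxcr4, Cxcl13 and Il17rd) and 3 lower (Il1r1, Ackr4 and Cxcl12) than dexamethasone alone, each 13.6% of the 22, against 3.82% higher and 4.78% lower among all genes tested. The combination against control had 5 higher (Il1r1, Il1rap, Il16, Il17rd and Cxcl13) and 3 lower (Cxcr4, Cxcl12 and Il33), or 22.7% and 13.6%, against 10.8% and 11.8%. Against LiCl it had 4 higher (Il1r1, Il1rap, Il16 and Cx3cl1) and 2 lower (Cxcr4 and Cxcl13), or 18.2% and 9.09%, against 3.79% and 3.09%. In these comparisons the member medians were -0.06, -0.01 and 0.02 on the log2 scale.

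The dexamethasone effect measured without LiCl and the one measured on LiCl use no library in common. They had the same sign in 17 of 22 members, against 65.3% of all genes tested, and Il1r1, Il1rap, Il16 and Cxcr4 passed in both, each in the same direction. The LiCl effect without and on dexamethasone likewise had the same sign in 19 of 22 members, against 69.1% of all genes, and Cxcl12, Cxcl13 and Il17rd passed in both, in the same direction.

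**Figure D1:**
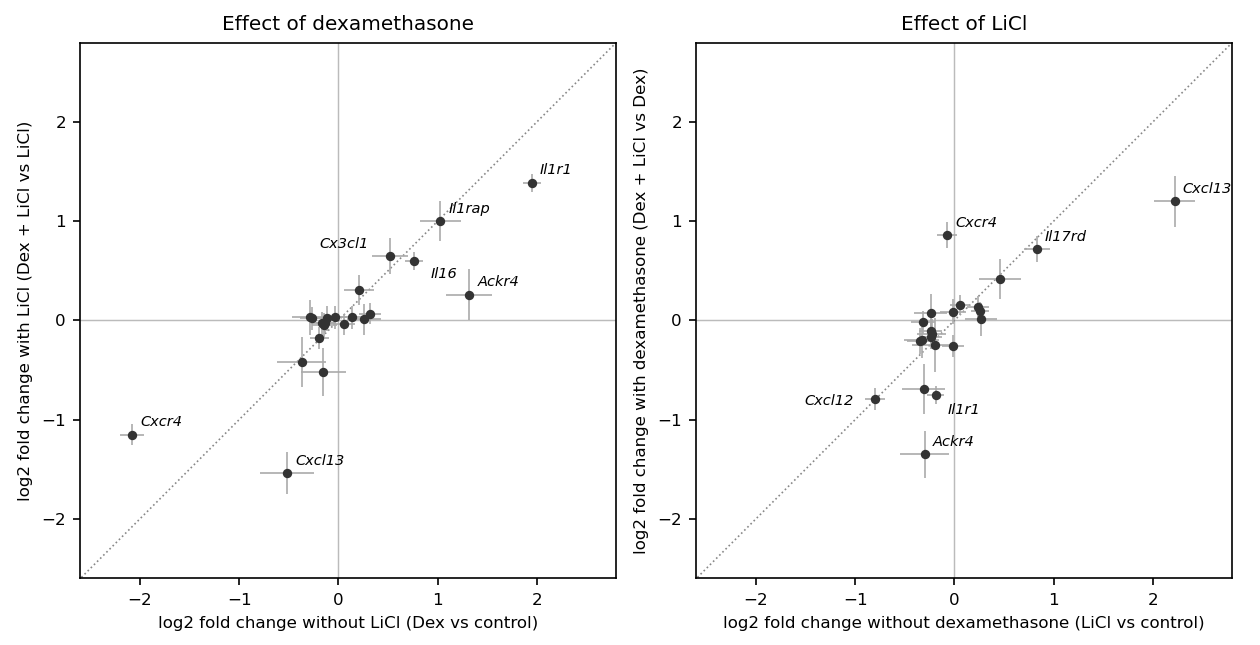
Log2 fold change of the 22 tested members for dexamethasone (left) and LiCl (right), without the other agent on the x axis and in its presence on the y axis, with bars of 1 SE and a dotted line where both are equal. Il1rap, Il16, Cxcl12 and Il17rd lie near the line, whereas Cxcr4, Il1r1, Ackr4 and Cxcl13 lie off it in at least 1 panel.

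Whether the effect of 1 agent changed with the other was tested as an interaction, which passed in 0 of 22 members by edgeR, where 0.00794% of all genes, that is 1 gene, passed. At an unadjusted p under 0.05 there were 4 members and 705 of the 12602 genes, and DESeq2 called 2 members (Cxcr4 and Il1r1) and 25 genes in all. For Cxcr4 the interaction was 0.93 (95% interval 0.58 to 1.28, adjusted p = 0.178, DESeq2 adjusted p = 0.0126), which is the amount by which its fall with dexamethasone was smaller in the presence of LiCl. It was -0.56 for Il1r1 (-0.82 to -0.30, adjusted p = 0.335, DESeq2 adjusted p = 0.0427). The values were -1.05 for Ackr4 (-1.79 to -0.32, adjusted p = 0.763) and -1.02 for Cxcl13 (-1.75 to -0.29, adjusted p = 0.791).

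Members under the count minimum included most chemokines of the CC class and most cytokines. The 40 with at least 10 counts in some library were read in a fit without a count filter. Against control, dexamethasone had 9 of the 40 past the threshold, 4 higher and 5 lower, where 8.4% of the 23569 genes in that fit passed. LiCl had 2 (both lower), where 7.84% passed. For the combination there was 1 against dexamethasone (5.87% of all genes), 12 against control (14.7%) and 2 against LiCl (5.18%). These shares also cover genes that stayed under 10 counts in every library, while the 40 were picked for reaching 10. Several called members also reached 10 counts only in groups in which they were high. These were control for Il1b, Ccl6 and Il21r, dexamethasone for Ccr1, and the combination for Cxcl1, Il12rb1 and Il13ra2. Ccl2, Cx3cr1 and Ccl9 did so only without dexamethasone, and Il20rb only with it. The counts of the 40 and the shares are therefore not like for like, and no result about the 40 is drawn from them. Control replicate 1 was the deepest library and also had the highest counts of Il1b (31, against 2 and 7 in the other controls) and Ccl2 (39, against 2 and 6). Without it, dexamethasone against control kept 5 of the 9, LiCl against control 0 of 2, and the combination against control 9 of 12. The calls lost were Ccl2, Ccl6, Cxcl1 and Il1b for dexamethasone, Ccl6 and Cx3cr1 for LiCl, and Ccl2, Il1b and Il21r for the combination.

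Cx3cr1, the fractalkine receptor of macrophages, had 47, 17 and 31 counts in control, 0, 3 and 0 with dexamethasone, 12, 13 and 14 with LiCl and 0, 0 and 1 with both agents. It was lower with dexamethasone (adjusted p = 2.1e-06) and with both agents against LiCl (adjusted p = 0.00024), and no fold is given because 3 counts, 0.137 to 0.331 CPM in these libraries, is the floor. It was lower with LiCl alone as well (adjusted p = 0.0434). Ccl9, a macrophage chemokine, had 42, 9 and 26 counts in control, 0, 3 and 1 with dexamethasone, 7, 7 and 15 with LiCl and 2, 6 and 4 with both agents. It was lower than control with dexamethasone (adjusted p = 0.00012) and with both agents (adjusted p = 0.0031), and LiCl alone missed the threshold (adjusted p = 0.0511). Ccl6 had 27, 7 and 11 counts in control, 0, 2 and 0 with dexamethasone, 1, 4 and 0 with LiCl and 0 in all 3 libraries with both agents. It was lower than control with dexamethasone (adjusted p = 0.0081), with LiCl (adjusted p = 0.0056) and with both agents (adjusted p = 0.00011). Cx3cr1 and Ccl9 reached 10 counts only in libraries without dexamethasone, and Ccl6 only in control. Each was thus read through groups in which it was higher. The macrophage markers summed to 96 to 149 CPM in control and 236 to 266 CPM with dexamethasone, where Mrc1 (log2 fold change 2.11) and Cd163 were among the 6 that rose and Cd68 was the 1 that fell (-0.51, adjusted p = 0.0074). Cd163 had at most 0.045 CPM in control and 0.286 CPM with LiCl. It entered the test through the libraries with dexamethasone, in which it was high. With LiCl 5 of the 10 tested macrophage markers were lower (84.3 to 89.4 CPM). Osteoclast markers were lower in 3 of 3 tested with dexamethasone (85.5 to 100 CPM against 159 to 178 CPM) and in 3 of 3 with LiCl (94 to 126 CPM). The part of either cell type in the Cx3cr1, Ccl9 and Ccl6 values was not tested. The 4 general leukocyte markers summed to 26.2 to 34.7 CPM in control and 22.1 to 23.3 CPM with dexamethasone. Their sum was 18.1 to 24.5 CPM with LiCl and 17.3 to 18.4 CPM with both agents. Against control, 0 of the 4 were lower with dexamethasone, 1 with LiCl and 3 with both agents. Among all genes tested, 5.49%, 5.9% and 11.8% were lower in these comparisons.

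Il22ra2, a secreted trap for IL-22, rose among these low members. It had 12, 9 and 17 counts in control, 28, 57 and 27 with dexamethasone, 15, 18 and 23 with LiCl, and 33, 33 and 37 with both agents, or 0.744 ± 0.177, 3.57 ± 1.05, 1.04 ± 0.0885 and 2.93 ± 0.726 CPM. It was higher with dexamethasone against control (adjusted p = 2.7e-07) and with both agents against LiCl (adjusted p = 0.0012). Il1rl2, the receptor of the IL-36 cytokines, and Il20rb, a chain of the IL-20 receptors, were also higher with dexamethasone (adjusted p = 0.0013 and 0.00014). Il1rl2 went from 52, 19 and 41 counts to 54, 62 and 29 in libraries that differ in depth. Il20rb had 1, 1 and 4 counts in control, 6, 15 and 19 with dexamethasone, 4, 2 and 3 with LiCl and 4, 3 and 10 with both agents. It reached 10 counts only in libraries with dexamethasone, so it was read through groups in which it was higher.

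**Figure D2:**
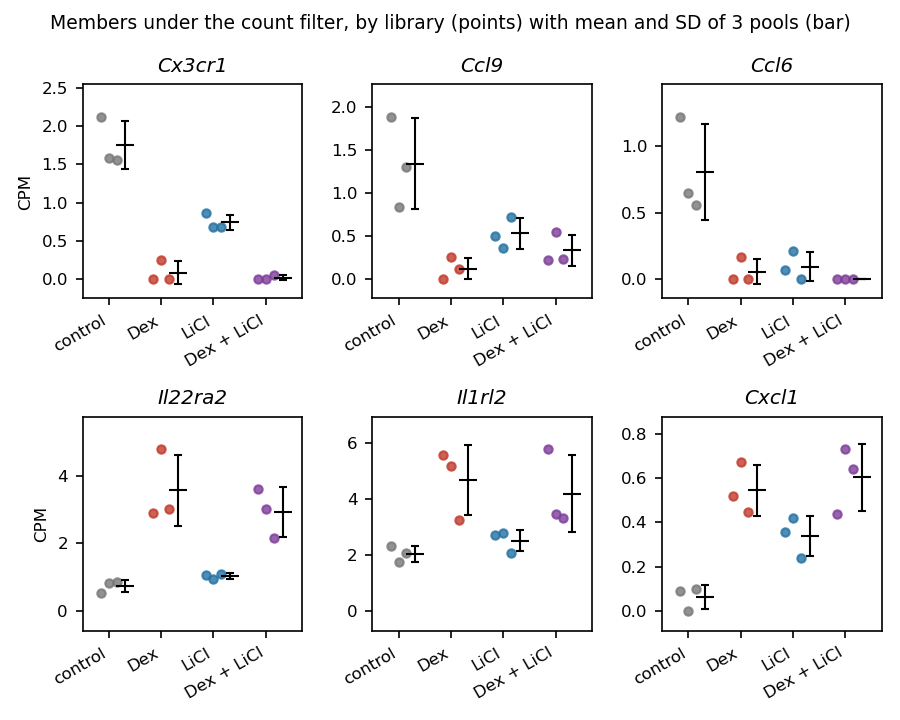
Level of members under the count minimum, in CPM, by group. Circles are the 3 libraries and the dash with its bar is the mean ± SD. Cx3cr1 is near 0 in the libraries with dexamethasone and intermediate with LiCl, Ccl6 is near 0 in every treated group, Ccl9 with both agents overlaps LiCl alone, and Il22ra2 is higher in them than in control and LiCl libraries.

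Downstream genes were read from lists that were chosen with earlier results of these data known. They are to be set against the 5.45% of all genes higher and 5.49% lower with dexamethasone, and 4.71% and 5.9% with LiCl. Each agent is read against control unless stated. Of 26 IL-1 receptor and Toll-like receptor adaptors and NF-kB genes, 23 were tested: dexamethasone raised 2, Nfkbia and Nfkbiz, and lowered none, with a list median of 0.08 against 0.00 over all genes. Nfkbia, the inhibitor that retains NF-kB in the cytoplasm, went from 32.2 ± 2.34 CPM to 68.9 ± 7.55 CPM (log2 fold change 1.10). Nfkbiz, a nuclear cofactor of NF-kB, went from 7.56 ± 0.532 to 20 ± 3.79 CPM with dexamethasone (1.42), 12.3 ± 0.592 CPM with LiCl and 33.3 ± 1.12 CPM with both agents. LiCl raised 4 of the 23 (Nfkbiz, Bcl3, Ikbkg and Ikbkb) and lowered none. Of 23 JAK, STAT and SOCS genes, 20 were tested: dexamethasone raised Jak2, a kinase of many cytokine receptors, by 1.09 (SE 0.08, adjusted p = 1.4e-07). None passed with LiCl against control. The gp130 family outside the set had 9 of 11 tested, with 3 higher with dexamethasone: Il6r (1.98, SE 0.14, adjusted p = 1.3e-07), Osmr and Cntfr. LiCl had 1 higher (Cntfr) and 2 lower (Clcf1 and Ctf1). Of 21 chemokine signalling and chemokine-like genes outside the set, 11 were tested, 1 of which rose with dexamethasone (Cmklr1) and 2 fell (Grk5 and Rgs16). None passed with LiCl against control. With LiCl added to dexamethasone, Jak2 (-0.45, adjusted p = 0.002), Il6r (-0.53), Clcf1 (-0.74) and Gnai1 (-0.56) were lower than with dexamethasone alone. Nfkbiz (0.73) and Bcl3 (0.68) were higher. No other gene of these lists passed there, where 3.82% of all genes were higher and 4.78% lower.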

How the data were processed

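Messenger RNA of 12 metatarsal pools was sequenced with a strand-specific kit. The authors deposited raw read counts per gene symbol. The submitters' notes name Subread, HTSeq, Picard and DESeq2, and a human build (hg19/GRCh37) for these rat libraries, so no file coordinate was used. A table of the whole series repeats these counts and was not used. Genes with at least 60 counts in 2 libraries were tested with edgeR 4.0.16 (R 4.3.3): TMM scaling and a quasi-likelihood fit of all 12 libraries by group, tested on simulated data. DESeq2 1.42.0 was an alternative. Named genes were members past the threshold in any comparison, the 3 marker genes, and low members with 10 counts. Members and lists were chosen with earlier results of these data known. Same-numbered libraries deviated together (residual correlation above 0.1 for every pair) in each comparison but dexamethasone against control (0.0273 to 0.17). The labels call the replicates biological without tying a number to a rat or experiment of the study. Protein features were not analysed here. Promoters came from RefSeq (GRCr8). P-values measure the spread between pools.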

Additional observations from a re-analysis of the deposited data

How the results depend on the processing

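The 28 calls of single members kept their direction in all 503 alternative values (DESeq2's RLE scaling in place of TMM, other count filters, DESeq2, fits of the compared groups only, the replicate block and each library left out), and 25 kept their side of the threshold in all. The exceptions were Cxcl13 and Il33 for the combination against control and Cx3cl1 for the combination against LiCl. Cxcl13 was lost in the fit of the compared groups only (adjusted p = 0.108) and without control replicate 1 or 2, dexamethasone 1 or 3, any LiCl library, or replicate 2 or 3 of the combination (0.0531 to 0.18). Cx3cl1 was lost in the fit of the compared groups only (adjusted p = 0.0513) and without control replicate 1, any dexamethasone library, LiCl 2 or 3, or replicate 2 or 3 of the combination (0.0515 to 0.269). Il33 was lost without control 1 or replicate 1 or 3 of the combination (0.0699 to 0.0926).

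Member counts past the threshold moved with the count filter and with a fold minimum. Dexamethasone against control had 5, with 9 under edgeR's own filter and 15 with none, and 5 to 6 with a library left out. LiCl against control had 3, with 7 without a filter, 5 with the replicate block and 1 at a 2-fold minimum. With a library left out it had 3 to 5, the 5 being without control replicate 3 (adding Cxcl14, -0.41, and Il11ra1, -0.43). The combination against dexamethasone had 6, and 2 at a 2-fold minimum. Against control it had 8, with 13 under edgeR's own filter, 22 with none, 3 at a 2-fold minimum, and 6 to 10 with a library left out. Against LiCl it had 6, and 3 at a 2-fold minimum. The interaction had 0 members, 2 by DESeq2 and 1 without a filter. Apart from the fit without a filter and the DESeq2 interaction, calls over all genes were not counted for these alternatives. Their member counts therefore have no share of all genes beside them. Beside Il16 and Il11ra1 for LiCl against control, the replicate block added Il11ra1 to the combination against control (-0.28, adjusted p = 0.0367) and changed no other member's call. For dexamethasone against control, where the numbers did not pair every library, the block gave 5 members. Counts below the minimum of 60 in at least 2 libraries limit what can be read of 108 members.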
